A study of Harpegnathos saltator with 37 samples.

Results

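New gamergates and workers of the ant Harpegnathos saltator were compared at day 20 after isolation, in 9 central brain libraries of the 37 in the series. The members were taken from the labels and column names as 5 gamergate and 4 worker libraries, whose labels carry the same run identifier. Gamergates are workers that mate and lay eggs after a period of dueling. Per the labels, 25 young females aged 5 days were placed with 3 males in a nest that held neither a queen nor a gamergate, and the day 20 brains were taken from such nests. No genotype, drug or transgene separated the groups, and both castes shared the removal from the parent colony, the isolation and the age class. Dissection removed optic lobes, gnathal ganglion and about 95% of each antennal lobe, leaving the central brain, and polyadenylated RNA was sequenced from 600 ng of total RNA. Libraries of other days are used for reference, namely 4 workers and 5 dueling ants of day 10, and 9 hunting workers and 6 dominant gamergates of day 120. The other 4 libraries, of late pupae, entered the fit and its estimate of spread. The labels do not say whether the libraries of a caste came from separate nests. A p-value here therefore rests on the spread between libraries within groups, which may in part be technical. In the main fit that spread was pooled over all 37 libraries, and not taken from the 9 of day 20 alone.

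Insulin-like peptides are made in insects by neurosecretory cells of the brain and by other tissues, and act through the insulin receptor, PI3K and Akt on growth, metabolism and, in many species, ovary development. ImpL2 is a secreted protein that binds insulin-like peptides and was characterised in Drosophila as an antagonist of their signalling. Corazonin, encoded by Crz, is a neuropeptide related to gonadotropin-releasing hormone and is known in ants for an association with worker and hunting behaviour. Hexamerins are storage proteins made mostly by the fat body, the insect counterpart of liver and adipose tissue. These bulk libraries cannot tell a change in the number of cells that make a transcript from a change in its amount per cell.

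Expression was deposited as FPKM, a level per gene length and library scale, which here followed median-of-ratios size factors and not total reads. Differences are given as gamergates minus workers on the scale of log2(FPKM + 0.5), with the standard error (SE) of the fit. Depth recovered from the steps of the FPKM values was 12.7 to 15.1 M reads in workers and 9.2 to 32.9 M reads in gamergates, the highest being gamergate replicate 3. Correlations of log2 values between libraries were 0.950 to 0.975 within workers, 0.914 to 0.972 within gamergates and 0.930 to 0.981 between castes. The median was 0.970, 0.947 and 0.959 in these 3 sets, so gamergates were less alike among themselves than gamergates and workers were, and gamergate replicate 5 correlated least with the rest. The first principal component held 37.2% of the variance and ran from gamergate replicate 5 to gamergate replicate 4, with workers in between. The median SD of a gene was 0.263 log2 units in gamergates and 0.195 in workers. Neuron and glia markers summed to at least 1746 and 759.8 FPKM in every day 20 library. Of the list members, 57 of 57 and 13 of 13 reached 1 FPKM in at least 1 library.

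A single gene passed the test, the insulin-like peptide gene ILP-2, which rose in gamergates. Of 9986 genes tested with limma across all 37 libraries, 1 was called at an adjusted p under 0.05, a share of 0.01%, and it was higher in gamergates. No gene was called lower. Limma-voom on recovered reads also called 1 gene higher and 0 lower. With no caste effect, a share of about 0.05 of all genes would have an unadjusted p under 0.05. There were 215 such genes, or 2.15%, which is fewer, with 96 higher (0.961%) and 119 lower (1.19%) in gamergates. That balance depended on the scale and on single libraries, with 25 higher and 123 lower on the TPM scale, 143 and 98 after quantile normalization, and 256 and 170, or 426 in all, without gamergate replicate 4. All 5 gamergates lay above all 4 workers for 35 genes (0.35%), and below them for 28 genes (0.28%). Without a caste effect, 1 in 126 arrangements of the 9 libraries gives each of these orders, a larger share than either. Lack of overlap alone is therefore not a sign of a caste effect. The median difference over all genes was -0.0029, and 9712 of the genes differed by less than 0.5 log2 units. Fitted on the 9 day 20 libraries alone, limma called 2 genes (0.02%), both lower in gamergates. These were LOC105185204 and LOC105185160, described with the hexamerins, and ILP-2 then had an adjusted p of 0.0601.

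**Figure D1:**
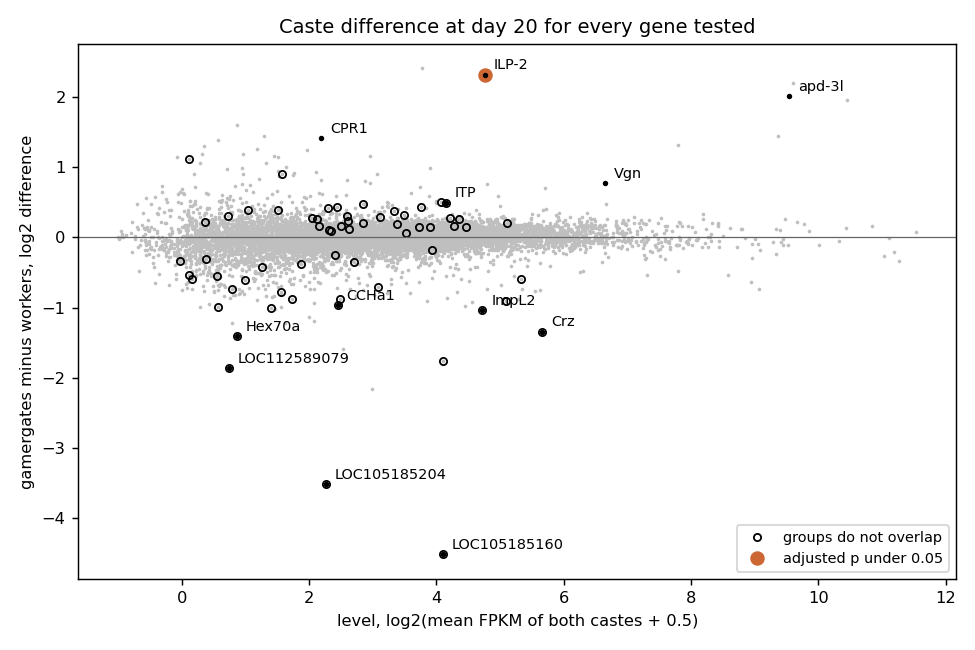
Each point is 1 of 9986 genes, with the log2 mean level of both castes on the horizontal axis and the log2 difference of gamergates minus workers at day 20 on the vertical axis. Open circles mark genes whose castes do not overlap, and the filled orange point is ILP-2, the gene with an adjusted p under 0.05 at a difference of 2.31. LOC105185160 and LOC105185204 lie lowest, at -4.51 and -3.52.

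ILP-2 was measured at 51.3, 18.4, 70.4, 42.3 and 42.7 FPKM in gamergates 1 to 5. The workers had 8.60, 6.05, 8.43 and 8.90 FPKM. The groups did not overlap, and gamergate replicate 2, the lowest of its caste, was still above every worker. Means were 45.0 ± 18.7 FPKM in gamergates (SD, n = 5) and 7.99 ± 1.31 FPKM in workers (SD, n = 4). The difference was 2.31 log2 units (SE 0.29), a 4.97-fold higher level, with a limma adjusted p of 4.81e-05. With any of the 9 libraries left out of the fit of all libraries, the difference was 2.12 to 2.60 and the largest limma adjusted p was 0.00103. In the fit of the day 20 libraries alone, leaving out gamergate replicate 2 brought the limma adjusted p down to 4.22e-04. None of the other 8 omissions called ILP-2, with a limma adjusted p of up to 0.399. No other insulin-like peptide gene was measured under a symbol.

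The mean level of ILP-2 was higher in day 20 gamergates than in any other group. It was 19.8 ± 4.96 FPKM in day 10 duelers (SD, n = 5), 11.3 ± 1.24 in day 10 workers (SD, n = 4), 18.3 ± 6.39 in day 120 dominant gamergates (SD, n = 6) and 5.85 ± 1.97 in day 120 hunting workers (SD, n = 9). Late pupae had 17.95 ± 6.17 FPKM (SD, n = 4). The lowest day 20 gamergate lay within the ranges of duelers, later gamergates and late pupae. Day and sequencing run changed together, so levels on different days cannot be told apart from run effects. The caste difference itself was taken within a run, apart from day 120, where a run term was fitted. It was 0.75 (SE 0.29, limma adjusted p = 0.761) at day 10 and 1.58 (SE 0.24, limma adjusted p = 0.00214) at day 120. The day 20 difference exceeded that at day 10 by 1.56 log2 units (SE 0.42), with an unadjusted p of 6.74e-04 in limma and an adjusted p of 0.895. It exceeded that at day 120 by 0.74 (SE 0.38), with an unadjusted limma p of 0.0605. A change in the size of the caste difference between days was therefore not established.

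Among the 27 measured genes of the insulin and TOR pathway, ILP-2 was the only member called, against 0.01% of all genes tested. It and 1 more gene had an unadjusted limma p under 0.05, or 7.41% of the list against 2.15% of all genes, and the list median was 0.01 log2 units. That other gene was ImpL2. The list was written with earlier results of these data known, so its share does not measure an enrichment. Gamergates 1 to 5 had 10.9, 20.3, 16.8, 18.7 and 16.63 FPKM of ImpL2, and workers had 23.4, 30.8, 43.2 and 42.9 FPKM. Every gamergate was below every worker, with worker replicate 1 nearest to the gamergates. The difference was -1.03 (SE 0.32), a ratio of 0.488, with an unadjusted limma p of 0.00285 and an adjusted p of 1, so it did not pass the test.

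The receptor and the enzymes downstream had overlapping castes. InR-2, an insulin receptor gene, had 7.03 ± 2.54 FPKM in gamergates (SD, n = 5) and 8.09 ± 2.46 in workers (SD, n = 4). Akt, the kinase that relays the signal, had 7.51 ± 0.598 and 7.70 ± 0.121 FPKM, with a difference of -0.04 (SE 0.09). Thor, a translation repressor that is a transcriptional target of the FOXO factor in Drosophila, had 93.3 ± 14.2 and 95.1 ± 17.3 FPKM, with a difference of -0.02 (SE 0.18). For foxo itself the means were 4.00 ± 1.33 and 3.44 ± 0.445 FPKM. Of the 27 genes, 25 differed by less than 0.5 log2 units, the exceptions being ILP-2 and ImpL2.

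**Figure D2:**
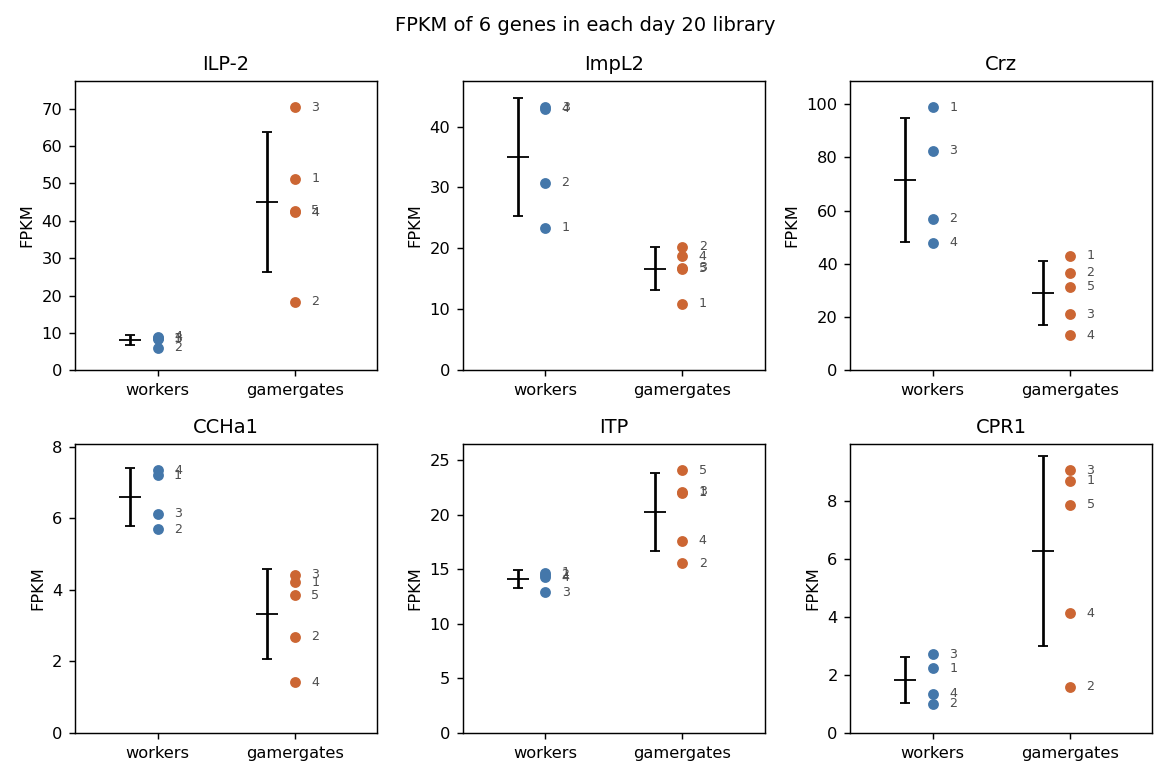
FPKM of 6 genes in each day 20 library, with workers in blue and gamergates in orange, replicate numbers beside the points, and the mean ± SD as a bar to the left. The castes do not overlap for ILP-2, ImpL2, Crz, CCHa1 and ITP, while for CPR1 gamergate replicate 2, at 1.59 FPKM, lies among the workers.

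Of 16 neuropeptide precursor genes, 15 were tested, and ILP-2 was again the 1 member called. The list median was 0.06 log2 units. Castes did not overlap for 4 of the 15, ILP-2 and ITP being higher in gamergates and Crz and CCHa1 lower, where 0.35% of all genes lay wholly above and 0.28% wholly below. The 4 genes were also the ones with an unadjusted limma p under 0.05, or 26.7% of the list against 2.15% of all genes. The list was written with earlier results of these data known, so neither share measures an enrichment of neuropeptide genes.

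Crz read 43.1, 36.6, 21.0, 13.1 and 31.3 FPKM in gamergates 1 to 5 and 98.8, 56.9, 82.5 and 47.8 FPKM in workers 1 to 4. The highest gamergate, replicate 1, was just below the lowest worker, replicate 4. The difference was -1.34 (SE 0.47), a ratio of 0.394, with an unadjusted limma p of 0.00704 and an adjusted p of 1. The caste difference of Crz was -0.83 at day 10 (limma adjusted p = 0.761) and -2.32 at day 120 (limma adjusted p = 0.00281), and the tests of these against day 20 gave an unadjusted limma p of 0.445 and 0.115. The corazonin receptor gene Crzr did not reach the filter, at 0.254 FPKM or less in each day 20 library.

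CCHa1, which encodes the neuropeptide CCHamide-1, had 4.22, 2.68, 4.42, 1.41 and 3.85 FPKM in gamergates and 7.21, 5.69, 6.13 and 7.35 in workers. All gamergates were below all workers. Its difference was -0.97 (SE 0.33), with an unadjusted limma p of 0.00608 and an adjusted p of 1. At day 10 and day 120 the difference was -0.59 and -0.93, and the tests of these against day 20 gave an unadjusted limma p of 0.421 and 0.936.

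ITP, the ion transport peptide gene, whose products are known as antidiuretic hormones in insects, had 22.03, 15.5, 22.1, 17.6 and 24.1 FPKM in gamergates and 14.7, 14.485, 12.9 and 14.3 in workers. The workers were close together and the lowest gamergate, replicate 2, was only just above them. The difference was 0.49 (SE 0.19), with an unadjusted limma p of 0.0158 and an adjusted p of 1. At day 120 it was -0.05. The day 20 value exceeded it by 0.54, with an unadjusted limma p of 0.0389 and an adjusted p of 0.663, so this change was not called.

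The other neuropeptide genes overlapped between castes. The most abundant, spab, had 956 ± 346 FPKM in gamergates (SD, n = 5) and 796 ± 101 in workers (SD, n = 4). SIFa, encoding the SIFamide peptide, had 161 ± 31.9 and 136 ± 23.9 FPKM, and NPF, encoding neuropeptide F, had 12.0 ± 5.78 and 10.1 ± 1.31. Pdf, the clock neuron peptide, had the widest spread among workers, from 1.78 to 29.8 FPKM. The 4 genes for peptide processing, 7B2, Phm, amon and svr, had differences from -0.22 to -0.07, and none passed the test. The same held for the 21 tested peptide and amine receptors, with a median of -0.01, and for the 12 tested genes of amine synthesis and transport, with a median of -0.03.

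Of all genes tested, the largest differences on the log2(FPKM + 0.5) scale belonged to 2 protein-coding genes without a symbol, both much lower in gamergates. In the order of the reference gene table, LOC105185204 and LOC105185160 stand next to each other, with Hex70a before them and Hex70c after them. That table names no scaffold for these genes, and gives the pair no product, so their relation to hexamerins is not known here. LOC105185160 was named after its values were seen.

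LOC105185160 was at 0.868, 4.66, 0.553, 0.160 and 0.427 FPKM in gamergates and at 39.6, 19.1, 26.3 and 42.8 FPKM in workers. Its recovered reads numbered 436 over the 5 gamergates and 8434 over the 4 workers. Every gamergate was below every worker, and gamergate replicate 2 was the highest of its caste. The difference was -4.51 (SE 1.13), with an unadjusted limma p of 3.33e-04 and an adjusted p of 0.369 in the fit of all libraries. With 4 of 5 gamergates under 1 FPKM, the fold depended on the scale, being 22.8-fold lower here and 16.2- to 44.3-fold over the other settings, and 24.0-fold between the FPKM means. In the fit of the 9 day 20 libraries the SE was 0.51 and the limma adjusted p was 0.0173. Both fits used the same difference, and only the estimate of spread was changed. With a day 20 library left out of the latter fit, the call held in 2 of 9 cases, without gamergate replicate 2 and without gamergate replicate 4, and the other adjusted p-values in limma ran from 0.0567 to 0.140.

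LOC105185204 was at 0.235, 0.911, 0.163, 0.0259 and 0.0990 FPKM in gamergates and at 10.4, 5.53, 6.01 and 11.3 FPKM in workers. Recovered reads numbered 60 in gamergates and 1344 in workers. Within each caste the order of libraries was that of its neighbour, gamergate 2 again being the highest gamergate, and worker 2 the lowest worker. The difference was -3.52 (SE 0.87), with a limma adjusted p of 0.369 in the fit of all libraries. With 4 of 5 gamergates below the pseudocount, the 11.4-fold lower level on this scale was 7.14-fold at a pseudocount of 1, 44.0-fold in limma-voom and 29.0-fold between the FPKM means. In the fit of the 9 day 20 libraries the limma adjusted p was 0.00262, and it stayed at 0.0249 or less with any of the 9 left out. How the counting treated reads that match both genes is not given in the sources used here.

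The named hexamerins were lower in level than the pair in workers, but in gamergates Hex70a and Hex110 averaged 0.395 and 0.3997 FPKM against 0.287 for LOC105185204. Hex70a had 0.302, 0.483, 0.506, 0.420 and 0.267 FPKM in gamergates and 3.99, 0.919, 0.814 and 3.22 in workers. Castes did not overlap, and the difference was -1.41 (SE 0.78), with an unadjusted limma p of 0.0811 and an adjusted p of 1. Hex70c was 0.139 to 0.386 FPKM in gamergates and 0.319 to 2.87 in workers, with worker replicate 1 the highest by far, and its difference was -0.73 (SE 0.51). Hex110 overlapped fully, from 0.0654 to 1.13 FPKM in gamergates and from 0.158 to 4.91 in workers. The gene listed after Hex70c, LOC105185158, was even, at 8.84 ± 0.823 FPKM in gamergates (SD, n = 5) and 8.60 ± 1.18 in workers (SD, n = 4). The gene listed before Hex70a, spz6, stayed below the filter.

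On other days the 4 genes varied widely. At day 10, LOC105185160 ran from 0.046 to 0.321 FPKM in duelers and from 2.53 to 22.4 in workers, with a median of 18.1, and the castes did not overlap. The caste difference was -4.32, with a limma adjusted p of 0.428. At day 120 it was positive, at 1.72 (limma adjusted p = 0.367), with 0.0387 to 147 FPKM in gamergates (median 29.1) and 0.0418 to 24.3 in hunting workers (median 0.999). The day 20 difference was 6.24 log2 units below that at day 120 in the LOC105185160 gene, with an unadjusted limma p of 1.52e-04 and an adjusted p of 0.556. For LOC105185204 this change was -5.16, with an unadjusted limma p of 6.44e-05 and an adjusted p of 0.556. Hex70a took the same course, with a day 120 difference of 2.53 and a median of 10.7 FPKM in gamergates there. None of these changes between days was called.

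**Figure D3:**
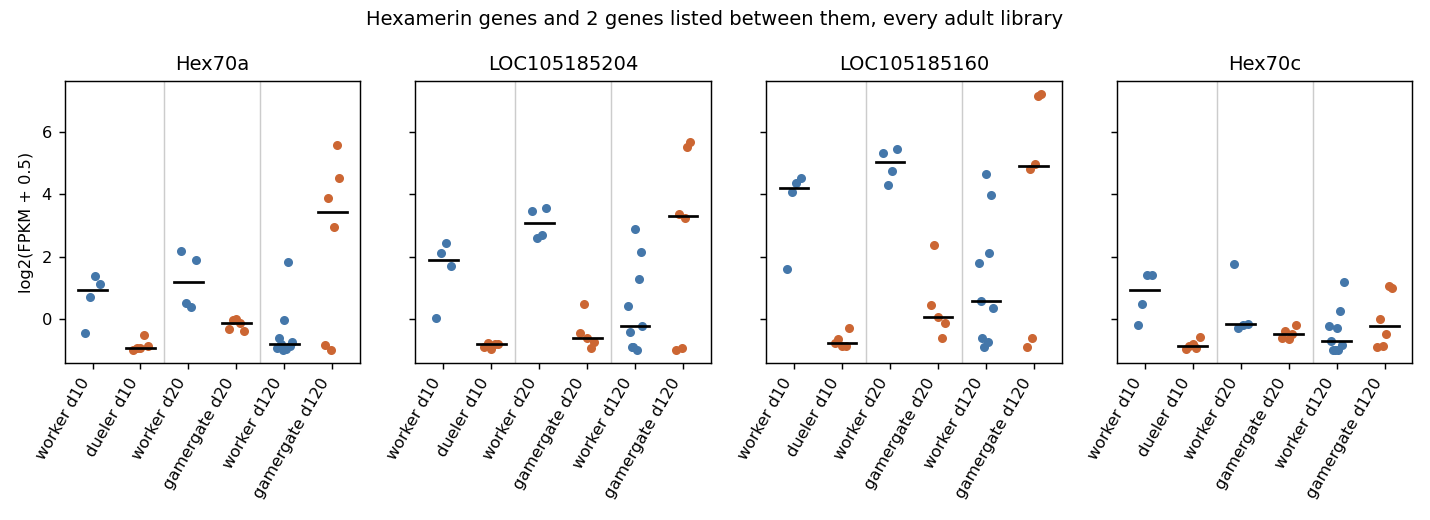
The log2(FPKM + 0.5) level of Hex70a, LOC105185204, LOC105185160 and Hex70c in every adult library, with workers in blue, duelers and gamergates in orange, and the group median as a bar. Day 10 duelers and day 20 gamergates lie below workers of the same day for LOC105185160, whereas at day 120 the gamergate median of 29.1 FPKM is above the worker median of 0.999 FPKM.

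Other genes of the fat body and yolk list overlapped between castes. None of its 21 members was called, the median was -0.07, and Hex70a alone had castes that did not overlap. Tsf1, a transferrin and the bulk of the list's signal, had 2192 ± 207 FPKM in gamergates (SD, n = 5) and 2250 ± 551 in workers (SD, n = 4). The lipophorin gene apolpp, which encodes the main lipid carrier of the hemolymph, had 196 ± 62.6 and 211 ± 19.8 FPKM. The summed level of the 21 genes was 2387 to 3210 FPKM in gamergates and 2030 to 3333 in workers, and no member was at 0 in all day 20 libraries. The part that adhering fat body plays in the hexamerin values was not tested.

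Vgn had 75.3, 15.3, 23.4, 532 and 131 FPKM in gamergates and 32.3, 51.6, 30.4 and 61.1 FPKM in workers. Gamergate replicate 4 stood far above the rest while replicates 2 and 3 were below every worker, so the castes were interleaved. The difference was 0.77 with an SE of 1.12.

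No gene of juvenile hormone and ecdysone signalling passed the test. Of 33 measured, 25 were tested and none had an unadjusted p under 0.05, with a median of 0.03. Kr-h1, a zinc finger factor induced by juvenile hormone, had 0.0479, 3.38, 0.160, 0.499 and 0.106 FPKM in gamergates and 0.637, 0.641, 0.0614 and 0.0693 in workers. It was low in all libraries but gamergate replicate 2. The gene jhamt, for the methyltransferase of the last steps of juvenile hormone synthesis, was at 0.0390 to 5.11 FPKM in gamergates and 0.129 to 3.63 in workers. The ecdysone receptor gene Ecr had 9.32 ± 3.75 and 8.48 ± 1.66 FPKM, and usp, encoding its partner, 27.5 ± 6.09 and 25.5 ± 4.75. Hr38, a nuclear receptor known as an activity-regulated gene in insect brains, had 4.38 ± 1.28 and 4.55 ± 1.67 FPKM. The highest gamergate value of Ecr and usp was that of replicate 5 in each case.

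Cuticle genes varied widely between libraries of the same caste. Of 43 measured, 21 were tested, none was called, and the median was 0.10. The smallest p was that of CPR1, a cuticle protein gene, at 8.71, 1.59, 9.08, 4.13 and 7.89 FPKM in gamergates and 2.24, 1.01, 2.71 and 1.35 in workers. Gamergates other than replicate 2 were above all workers. The difference was 1.41 (SE 0.41), with an unadjusted limma p of 0.00164 and an adjusted p of 1, whereas at day 10 it was 2.55 with a limma adjusted p of 0.00282. The apidermin gene apd-3l ran from 6.85 to 2953 FPKM in gamergates and from 8.79 to 949 in workers. The summed level of the list followed it, at 110 to 3061 FPKM in gamergates and 95.1 to 1026 in workers, and CPR11 was at 0 in all 9. Cuticle genes can be alike in sequence, which was not examined here, so their single values are uncertain.

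The castes did not overlap for further genes with a symbol, which alone is not a sign of a caste effect. Higher in gamergates without passing the test were CPSF2, of the pre-mRNA cleavage complex, at 0.32 (SE 0.08, limma adjusted p = 0.350), Ssl1, of the general transcription factor TFIIH, at 0.23, and ogre, an innexin of gap junctions, at 0.44. GCC88, Taf2, RpI1, Nopp140 and Dus3 were between 0.15 and 0.20. CPSF2 was at 11.2 to 13.2 FPKM in gamergates and 7.74 to 10.7 in workers. Ssl1 was at 5.61 to 6.46 and 5.00 to 5.40 FPKM. Lower in gamergates were Ttc30, of intraflagellar transport, at -1.01 (SE 0.29, limma adjusted p = 1), Ada at -0.26 and pck, of septate junctions, at -0.18.

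Of genes with no symbol, the pseudogene LOC112589079 came nearest to the threshold. It was at 0 FPKM in gamergates 1, 2 and 5, at 0.527 and 0.446 in gamergates 3 and 4, and at 3.62, 0.938, 1.11 and 2.93 in workers. The difference was -1.87 (SE 0.36) with a limma adjusted p of 0.0602. It passed the threshold in limma without gamergate 3, without gamergate 4, without worker 2 or without worker 3, the adjusted p being 0.0170 to 0.0493, and at a pseudocount of 1, at 0.0409. With 3 gamergates at 0, the difference itself ran from -3.33 to -1.32 over the settings. LOC112588621 was at 4.15 to 7.72 FPKM in gamergates and 7.77 to 13.9 in workers (difference -0.71, limma adjusted p = 0.340). LOC105184270, LOC105190091 and LOC112589247 were higher in every gamergate than in every worker, by 0.89, 0.50 and 0.41 log2 units, and did not pass.

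The remaining lists stayed near the median of all genes. Of 25 lists, 20 had no member with an unadjusted p under 0.05, and list medians ran from -0.17, for the 7 clock genes, to 0.10, for cuticle. Over all settings and omitted libraries they ran from -0.39, for retina and optic lobe by limma-voom, to 0.35, for cuticle with the filter on day 20 libraries or at 5 FPKM. The sign of the median turned in at least 1 of these for 22 lists, and was kept for retina and optic lobe, cuticle and clock. Synaptic and neuronal genes (57 tested) had a median of 0.02, chromatin genes (48) 0.04, ribosomal proteins (58) -0.08, mitochondrial ribosomal proteins (70) 0.0038, oxidative phosphorylation (56) -0.0017, and the proteasome (31) 0.01. Leaving out 1 library moved the median of synaptic and neuronal genes from -0.13, without gamergate 5, to 0.18, without worker 1. For ribosomal proteins it moved from -0.20, without gamergate 1, to 0.07, without worker 1, and for chromatin genes from -0.04 to 0.06. Every member of these 6 lists differed by less than 0.5 log2 units. The lists for muscle (23 tested, median 0.03), glia (13, -0.11), axon guidance and adhesion (30, -0.03), activity-regulated genes (10, 0.03), chemosensory genes (12, -0.06), cell cycle and replication (28, 0.01), and mushroom body and neural development (10, 0.08) also held no call and no unadjusted p under 0.05. In the last of these dac, a transcription factor of mushroom body neurons in Drosophila, had the largest difference, at 0.47 (limma adjusted p = 1). Among 23 immune and hemocyte genes, egr, a tumour necrosis factor ligand, had the smallest p (-0.44, limma adjusted p = 1), and among 24 stress and detoxification genes it was Cyp304a1 (0.50, limma adjusted p = 1).

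Retina and optic lobe markers were detected, although the optic lobes had been cut away. Of the 18 genes, 17 reached 1 FPKM in a library, with a summed level of 219 to 714 FPKM in gamergates and 564 to 720 in workers. Gamergates 1 and 3 were the lowest, at 369 and 219 FPKM. The median difference was -0.16 over 17 tested genes, and Uvop, an ultraviolet-sensitive opsin, had a difference of -0.61 (limma adjusted p = 1).

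**Figure D4:**
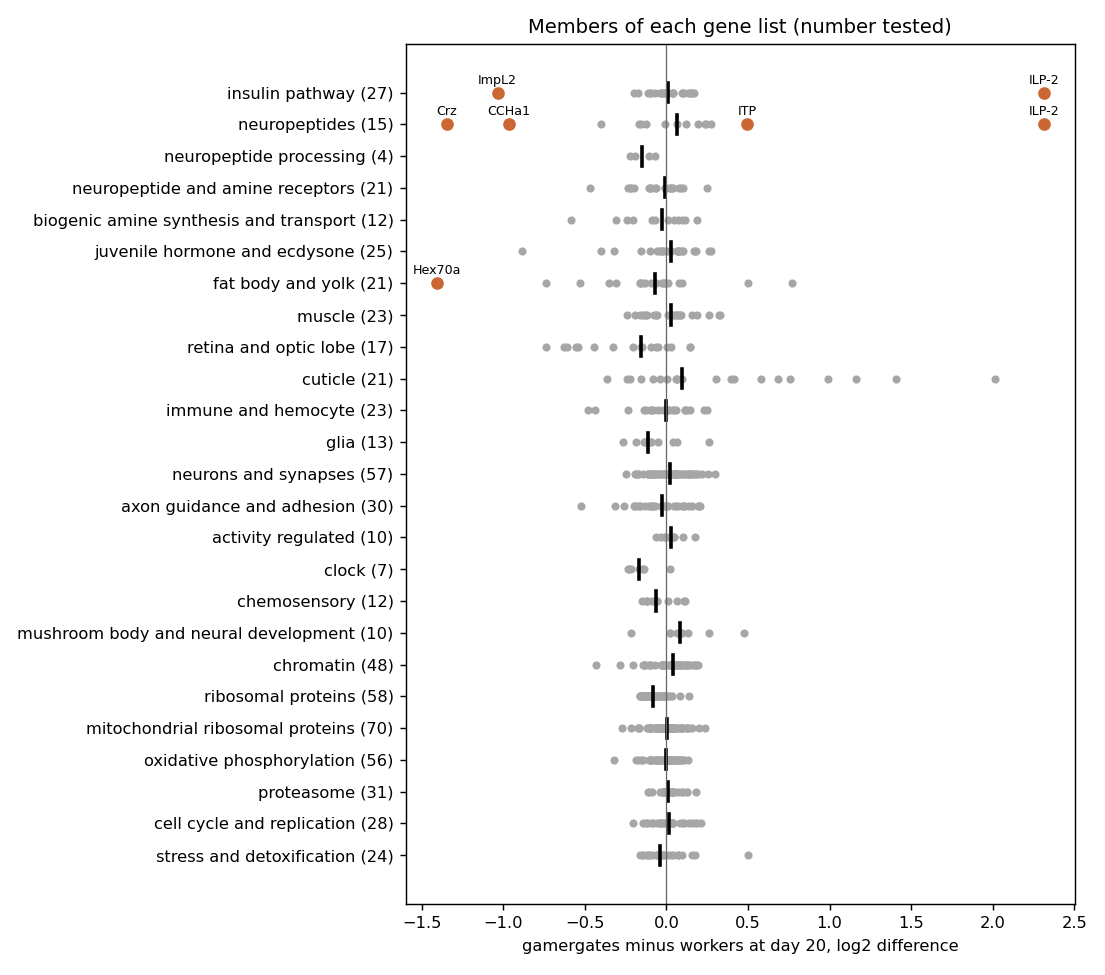
Log2 difference of gamergates minus workers at day 20 for the tested members of 25 gene lists, with the number tested in parentheses, the list median as a bar and members whose castes do not overlap in orange with their names. List medians lie between -0.17 and 0.10, and the named members are ILP-2, ImpL2, Crz, CCHa1, ITP and Hex70a.

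The caste difference at day 20 was set against that at the other days, which share no libraries with it, over all 9986 genes. No gene was called for a different caste effect at day 20 than at day 10 or at day 120 (0% for each). At an unadjusted limma p under 0.05 there were 300 genes (3%) and 646 genes (6.47%). With no change, a share of about 0.05 is expected there. With 1 library left out these were 159 (without gamergate 5) to 806 (without gamergate 4) and 332 (without gamergate 1) to 1052 (without gamergate 4), and on the TPM scale 1358 and 374, so their order was not stable. At day 10, 2 genes (0.02%) were called between duelers and workers, and at day 120, 6 genes (0.0601%) between gamergates and hunting workers. ILP-2 had the same sign on the 3 days, as had CCHa1, Crz and CPR1, while Hex70a, LOC105185204 and LOC105185160 did not. Values within 1 SE of 0 were those of ImpL2 at day 10, -0.06 (SE 0.32), and of ITP at day 120, -0.05 (SE 0.16), so their signs on those days were not resolved.

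**Figure D5:**
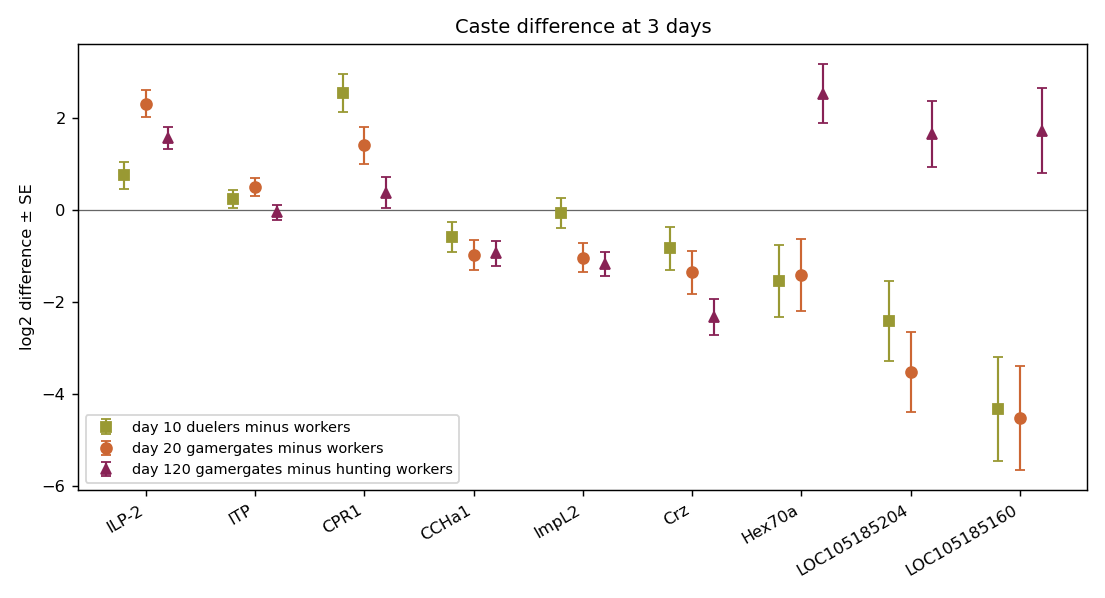
Caste difference of 9 genes on the log2 scale, with SE, at day 10 (duelers minus workers), day 20 (gamergates minus workers) and day 120 (gamergates minus hunting workers). ILP-2 is highest at day 20, at 2.31, and the hexamerin neighbours are negative at days 10 and 20 and positive at day 120.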

How the data were processed

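Central brain RNA of 37 samples was measured, and the 9 libraries of day 20 were compared. The authors deposited FPKM values per gene in 1 table, of 14001 genes. Tools were bcl2fastq, STAR and featureCounts, per the submitters' processing notes, while versions, genome build and strand setting were not given in the sources used here. From the steps of low values, whole reads were recovered for 13445 genes within 0.002 read, and 556 genes were at 0. The deposited FPKM scale was 0.989 to 1.01 times the median-of-ratios size factors of these reads, so values are relative to a typical gene and not to total reads. On average over genes with enough reads to compare, counting error was small beside the spread between libraries. This average says little of genes with few reads, such as LOC105185204, with 60 over the day 20 gamergates. Of the gene IDs, 13989 matched assembly Hsal_v8.6, used for names and order only.

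The fit was made with limma 3.58.1 (R 4.3.3, lmFit, eBayes with trend, two-sided) on log2(FPKM + 0.5), with 1 mean per group over 37 libraries and a run term within day 120. Genes needed 1 FPKM or more in 4 libraries. Adjustment was by Benjamini-Hochberg over all tested genes, and 0.05 was the threshold. Data were simulated with independent noise and 200 changed genes, all with a mean level above 2 FPKM. There, 81.6% of changes of 1 log2 unit and 96.5% of changes of 2 were called in this fit of 9986 genes. It also called 8 unchanged genes. These shares do not carry over to the real comparison, where 1 gene passed and the adjusted cut-off was stricter. No pair of libraries agreed within counting noise. The members and gene lists were chosen with earlier results of these data known. Genes named were those called, a fixed set, up to 10 with and 3 without a symbol per direction whose castes did not overlap at a mean of 2 FPKM or more, and 3 per list by p. Alternatives were other pseudocounts, filters, scalings, weights, library sets, voom on recovered reads and omitted libraries.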

Additional observations from a re-analysis of the deposited data

Results flagged for a closer look

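Among 102 named genes in 2 groups each, the highest or lowest library stood apart from the others of its caste by Dixon's gap ratio in 18 cases. Chance alone gives about 1 in 20 groups. Gamergate replicate 2 was high in Kr-h1 (3.38 FPKM against 0.0479 to 0.499 in the others), in LOC105185160 (4.66 against 0.160 to 0.868) and in LOC105185204 (0.911 against 0.0259 to 0.235). In ILP-2 worker replicate 2 was low, at 6.05 FPKM. Gamergate replicate 4 was high in Vgn, at 532 FPKM against 15.3 to 131.

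Gamergate replicate 5 was high in LOC105190091 (29.6 FPKM), REPTOR (12.0), side (4.51) and Jra (14.1). Gamergate replicate 1 was low in Ada, at 3.33 FPKM, and high in RpL23A, at 82.1. Worker replicate 1 was low in Akt (7.52 FPKM), e (1.36), egr (16.0) and repo (24.5), and high in Atf3 (4.78). Worker replicate 3 was high in CPR14, at 35.7 FPKM, and worker replicate 4 in Uvop, at 7.21 FPKM.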

How the results depend on the processing

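The single call of ILP-2 was kept, with no gene called lower, at a pseudocount of 0.1, with no filter, with the filter on day 20 libraries or at 5 FPKM, on TPM and quantile scales, with adults only and by limma-voom on recovered reads. At a pseudocount of 1, 2 genes were called lower (LOC112588909 and LOC112589079), and with array weights 3 (LOC105186476, LOC112589382 and LOC112590084). On the 9 day 20 libraries alone the counts were 0 higher and 2 lower, with 0 list members called. Limma-voom on these 9 gave 1 higher and 2 lower. With 1 library left out, 1 gene was higher and 0 to 2 lower over all libraries, and 0 to 1 higher and 1 to 2 lower in the day 20 fit. Genes called for a different caste effect between days were 0, except 1 with array weights (LOC105189612) and 1 without worker replicate 4 (LOC105188646), so 0 to 1 over omitted libraries. TPM moved the median of all genes to -0.05.

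Deviations of same-numbered libraries correlated at 0.0993 to 0.450, over 0.1 for 3 of the 4 shared numbers, and 5 of 8 libraries correlated best with their own number. The labels give no shared nest or day, and number 1 fell just short of 0.1, at 0.0993, so the numbers were not taken as pairs. Whether same-numbered libraries share a nest or day cannot be told from these values. With a replicate block the count was still 1 higher and 0 lower. Gamergate replicate 5, which has no worker of its number, shared the block of number 1 there. That fit therefore does not test pairing by number. Differences changed sign with array weights for Ecr (-0.033), Hr38 (0.192), Vgn (-0.256), svr (0.080), Phm (0.044) and Oamb (0.039), and with the replicate block for Ecr (-0.034). With 1 library left out they spanned 0 for Kr-h1 (-0.23 to 0.48), Ecr (-0.12 to 0.20), usp (-0.018 to 0.21), Hr38 (-0.16 to 0.17), Akt (-0.073 to 0.0023), Thor (-0.095 to 0.093), Jra (-0.10 to 0.25), Ir76b (-0.28 to 0.0063) and Stip1 (-0.0040 to 0.16). None of these genes was called in any of these fits. The planned edgeR fit was not run, because the table holds FPKM. Chosen after seeing the data were the day 20 voom fit, day 20 omissions, removal of gene length trends, and leaving out gamergates 1 and 5 and worker 1, which had array weights under 0.5. The last 2 gave 1 higher and 0 lower.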
